A study of Mus musculus with 6 samples.

Results

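Acvr1b, Ski and Bmp1, 3 genes of the transforming growth factor beta (TGF-beta) and bone morphogenetic protein (BMP) pathways, were followed on both strands in mammary tumors and normal mammary glands of GRS/A mice. They were chosen by the difference of their signals between tumor and normal gland on these arrays, so those differences are described here and not tested. All probes carrying the symbol or accession of these genes were taken, which gave 17 of the 2153 probes, of 2156 named on the arrays, that could be tied to an entry of the deposited table, and 3 of the 447 genes these represent. Each gene had 1 sense probe, which detects its mRNA. There were also 14 antisense (AFAS) probes, which carry the reverse complement of the mRNA and detect RNA from the opposite strand. Acvr1b and Ski had 5 of these each and Bmp1 had 4. They are called here by the probe number at the end of their names, counted from 0.

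In this pathway, dimeric ligands such as TGF-beta, the activins and the BMPs bring together type I and type II receptor kinases on the cell surface. The type I receptor then phosphorylates receptor Smad proteins, which move to the nucleus with Smad4 and change the transcription of target genes. Acvr1b encodes a type I receptor that serves activins and related ligands. Ski encodes a nuclear co-repressor that binds Smad proteins and holds down their target genes, and it was first known as the cellular relative of a viral oncogene. Bmp1, despite its name, encodes no ligand but a secreted metalloproteinase, which trims procollagens and cleaves chordin, an antagonist of BMPs. In the mammary gland TGF-beta signals are known to restrain the growth of ducts.

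The samples were 4 mammary tumors and 2 normal mammary glands of GRS/A, an inbred strain that is prone to mammary tumors caused by mouse mammary tumor virus. No treatment or age is given for either group. The extraction protocol of all 6 samples names brain, whereas titles and sample sources name mammary tissue, and the grouping followed the titles. Nothing says that the samples came from separate mice, so p-values measure the spread between these samples only. Total RNA, labeled from random primers, was hybridized to 1-colour arrays of 60-base probes, 1 array per sample. Tumors 3 and 4 shared a slide; on which slides the normal glands lay was not analysed here. Signals that were low or not above background had been set to a floor of 5, where between 0.881% (tumor 1) and 12.9% (tumor 4) of the named probes lay in the tumors, against 24.4% and 31.1% in the normal glands. The median log2 difference, tumor minus normal gland, was 0.91 over all sense probes and 0.44 over all antisense probes. Of 10 listed luminal markers 4 had a sense probe, and the summed signals of Esr1, Krt18, Krt19 and Prlr ranged from 27020 to 118600 in the tumors and from 9301 to 9580 in the normal glands. Esr1, which encodes the estrogen receptor, ran against this sum, with 886, 2654, 731 and 7584 in the tumors against 4339 and 5416 in the normal glands. The gene of the Krt18 probe was taken from the neighbouring entries of the deposited table. Of 13 listed brain markers, 3 had a sense probe, and their summed signals ranged from 377 to 1203 in the tumors against 727 to 758 in the normal glands. Fibroblast markers (2 of 8 measured) summed to between 388 and 661 in the tumors and 408 and 686 in the normal glands. Of the basal or myoepithelial markers (1 of 5), Krt14 read between 1752 and 5193 against 2463 and 3692. Endothelial markers (4 of 9) summed to between 1355 and 4172 against 1397 and 2199. Leukocyte markers (7 of 13) summed to between 12340 and 40680 against 7521 and 12300. The largest part of the leukocyte sum was Cd4, with 15502, 31636, 7659 and 10063 in the tumors against 7078 and 3901. Only 3 of the 7 leukocyte markers lay above both normal glands in every tumor, and Fcgr2b differed by 0.10 on the log2 scale. Signals of different probes share no scale, so each sum leans on its brightest markers. No marker was at the floor on all arrays, and none of adipocytes or milk had a sense probe linked to it. The part of cell composition in the values below was not tested. In whole tissue, fewer cells of a type and less RNA per cell cannot be told apart.

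The sequences of probes whose values are described below are given 5′ to 3′. Those of the first 2 pairs are shown because an antisense probe and the sense probe of the gene lie over the same stretch of the transcript, on opposite strands, and capitals mark the shared run.
Ski sense: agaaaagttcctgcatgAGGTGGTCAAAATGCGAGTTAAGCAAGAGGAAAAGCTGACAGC
Ski antisense 0: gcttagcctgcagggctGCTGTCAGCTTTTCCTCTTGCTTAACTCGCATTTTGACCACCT
Bmp1 sense: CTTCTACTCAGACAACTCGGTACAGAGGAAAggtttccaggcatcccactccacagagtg
Bmp1 antisense 1: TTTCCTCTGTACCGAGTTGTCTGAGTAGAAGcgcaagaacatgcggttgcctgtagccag
Ski antisense 1: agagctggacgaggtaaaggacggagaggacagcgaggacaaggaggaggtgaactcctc
Acvr1b antisense 4: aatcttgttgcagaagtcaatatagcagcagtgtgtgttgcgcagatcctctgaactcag
The first of the last 2 was lower in every tumor although the Ski sense probe was higher. The second was higher in every tumor, in the values as deposited, together with the Acvr1b sense probe. Of 4 further probes the first 30 of 60 bases are given, because their signals are compared with the sense probe of the gene below.
Acvr1b sense, first bases: aaacaaaacacaaaaattctccagactcaa
Acvr1b antisense 0, first bases: taaacttaggttaaacaccatattcagctc
Acvr1b antisense 2, first bases: ctgggctctctgtacttcccactgcaagca
Bmp1 antisense 0, first bases: gattgagggaagcaggactccagttcccgc
The Ski pair shared 43 bases and the Bmp1 pair 31. No Acvr1b antisense probe shared more than 8 bases with the sense probe of the gene. Among all 1599 antisense probes of genes with a sense probe, 168 (10.51%) shared a run of at least 12 bases with it. The files carry no genome build, and chromosome positions are therefore left out.

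Acvr1b (NM_007395) mRNA was more abundant in each tumor than in either normal gland. The sense probe read 1866, 3377, 2692 and 1951 in tumors 1 to 4, and 830 and 562 in normal glands 1 and 2. The means were 2472 ± 709 (SD, n = 4) and 696 ± 189 (SD, n = 2). This is a log2 difference of 1.81 (SE 0.35), or 3.51-fold, and the 2 groups did not overlap. Such separation was found for 46.0% of all sense probes, and since it took part in the choice of the genes nothing is read from it. Relative to the median of the sense strand the difference was 0.90.

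On the opposite strand of Acvr1b, the probes did not share 1 direction. Antisense probe 0 followed the mRNA, with 1225, 775, 887 and 655 in tumors 1 to 4 against 299 and 250 in the normal glands. Its log2 difference was 1.66 (SE 0.23), or 3.15-fold. Antisense probe 4 was also higher in every tumor, by 0.78 (SE 0.38) on the log2 scale, with 525, 205, 157 and 233 against 141 and 151. Tumor 1 stood highest on this probe and tumor 3 was close to the normal glands. With arrays set to a common 75th percentile the log2 difference was 0.38, and tumors 2 and 3 lay below normal gland 2. Antisense probe 2 ran the other way, with 853, 1331, 1253 and 738 in the tumors against 1798 and 1822, so that every tumor lay below both normal glands. The signal fell by 0.84 (SE 0.21) on the log2 scale, and the 2 normal glands were nearly equal there. Antisense probe 1 overlapped between the groups, with 1799, 2441, 1005 and 1519 against 1548 and 1064. Its log2 difference of 0.33 (SE 0.38) turned to -0.10 after quantile normalization. Antisense probe 3 was dim, at 71.3, 35.1, 7.02 and 26.6 in the tumors against 23.9 and the floor. Its log2 difference, 1.26 (SE 1.33), ranged from 0.13 without normal gland 2 to 2.39 without normal gland 1.

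Ski (NM_011385) mRNA was likewise higher in each tumor. Its sense probe read 670, 760, 623 and 1297 in tumors 1 to 4 against 208 and 159 in the normal glands, with means of 838 ± 312 (SD, n = 4) and 183 ± 34.5 (SD, n = 2). The log2 difference was 2.14 (SE 0.31), or 4.41-fold, and 1.23 above the sense median. Tumor 4 was highest, and the other 3 tumors lay close together without reaching down to the normal glands.

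The antisense probes of Ski fell into 3 that were dim and 2 that were bright. The dim ones lay above the floor in all 4 tumors, with both normal glands on it. Antisense probe 0, whose 43 bases face the sense probe, read 71.7, 17.0, 12.1 and 98.4 in tumors 1 to 4. Antisense probe 3 read 67.6, 16.5, 37.0 and 29.0, and antisense probe 4 read 46.2, 5.92, 17.9 and 29.96. No fold is given for these 3, since values at the floor have no order. Among all antisense probes, 157 (8.98%) had both normal glands at the floor and no tumor there. The share of probes at the floor was lower in the tumors than in the normal glands, and lowest in tumor 1. The part of that share in this pattern was not tested. Antisense probe 1 was bright and was lower in every tumor, with 1292, 1118, 851 and 1065 against 2115 and 1762. It fell by 0.85 (SE 0.18) on the log2 scale, in the direction opposite to the mRNA. Antisense probe 2 overlapped between the groups, with 627, 1471, 373 and 694 against 859 and 448. Its log2 difference of 0.17 (SE 0.62) ranged from -0.30 to 0.64 when 1 array was left out.

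Bmp1 (NM_009755) mRNA moved the other way. The sense probe read 857, 3501, 739 and 1973 in tumors 1 to 4, against 6804 and 9243 in the normal glands. The means were 1767 ± 1282 (SD, n = 4) and 8024 ± 1725 (SD, n = 2). The log2 difference was -2.46 (SE 0.57), that is, 5.48-fold higher in the normal glands, and it lay below the median of the sense strand, at -3.37 relative to it. All 4 tumors lay below both normal glands. Non-overlapping lower signals were found for 3.47% of the sense probes.

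Bmp1 antisense probe 0 followed the mRNA, with 685, 602, 826 and 652 in the tumors against 1794 and 2325. Its log2 difference was -1.57 (SE 0.21), or 2.98-fold higher in the normal glands. The tumors differed little from each other on this probe: the SD of their log2 signals was 0.19, against 1.05 for the sense probe. Antisense probe 1, whose 31 bases face the sense probe, read 76.1, 19.0, 20.8 and 30.4 in the tumors, with both normal glands on the floor. Antisense probe 2 was at the floor on 4 of the 6 arrays, and only tumor 1 (9.76) and tumor 2 (16.3) lay above it. Antisense probe 4 was bright and read 26794, 49057, 7949 and 42088 in the tumors against 41998 and 36041, so the groups overlapped, with a log2 difference of -0.60 (SE 0.61). G and C made up 75% of its bases, beside a median of 45% over the strand.

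**Figure D1:**
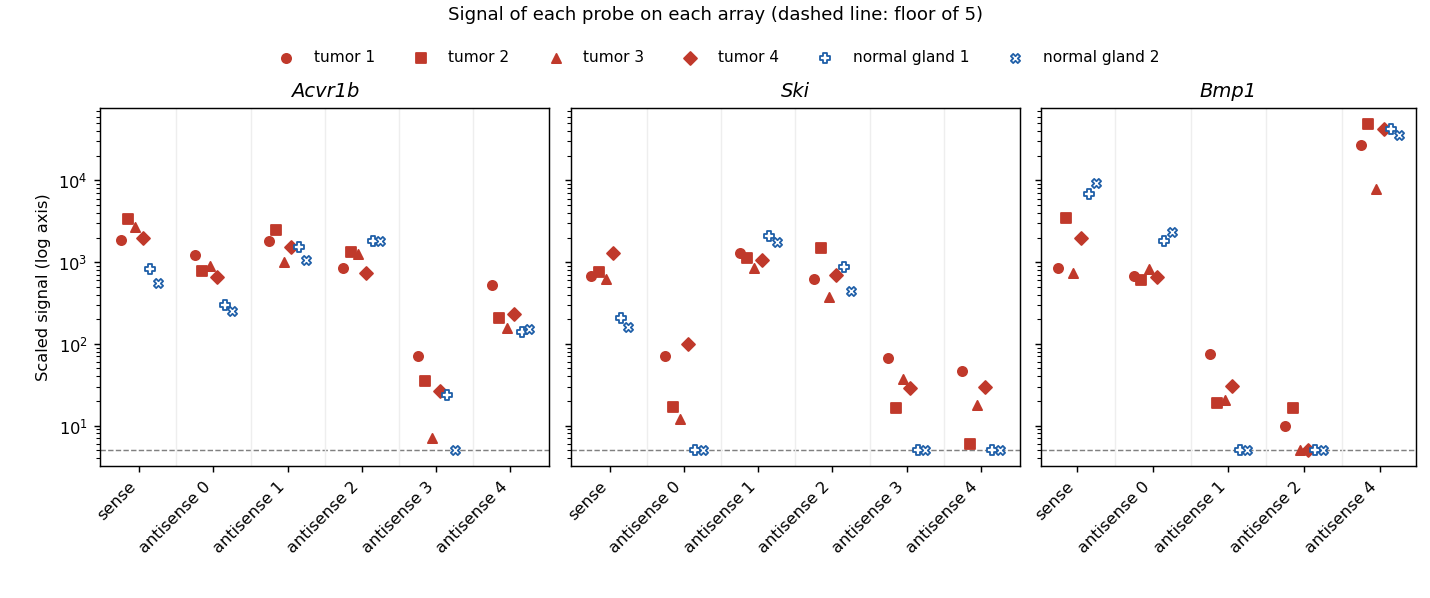
Scaled signal (log axis) of the 17 probes of Acvr1b, Ski and Bmp1 on each array, with filled red symbols for the 4 tumors, open blue symbols for the 2 normal glands and a dashed line at the floor of 5. The tumors lie above the normal glands on the sense probes of Acvr1b and Ski and below them on that of Bmp1, while antisense probes of each gene lie in both directions or overlap.

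Taken over the 14 antisense probes, the tumors lay above both normal glands on 6, below both on 3, and overlapped with them on 5. The corresponding shares of all antisense probes were 21.6% above and 6.92% below, or 28.5% without overlap. As the signals of the same arrays chose the genes, nothing is read from these shares. For 4 of the 6 higher probes the values of both normal glands were at the floor. Only Acvr1b antisense probes 0 and 4 were therefore higher with every normal value measured. For probe 4 this held in the values as deposited, and not with arrays set to a common 75th percentile. Of the 9 antisense probes that did not overlap, 6 had the direction of the sense probe of the gene and 3 the opposite direction. The 3 were Acvr1b probe 2, Ski probe 1 and Bmp1 probe 1, the last with both normal glands at the floor. In all, 216 antisense probes could be set beside a sense probe in this way, and 69.9% had the direction of the sense probe. The median log2 difference of the 14 was 0.72, beside 0.44 for the strand. The genes were chosen by such differences, and 5 of the 14 had both normal glands at the floor. Nothing is therefore read from this median either.

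**Figure D2:**
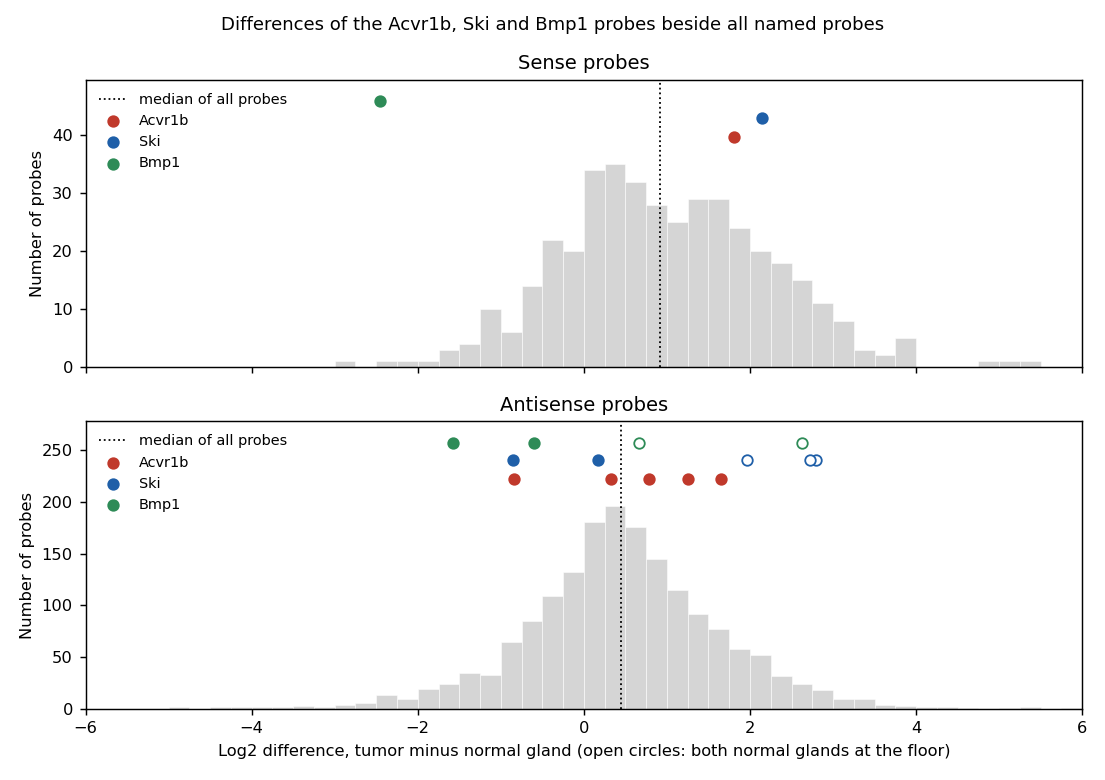
Log2 difference, tumor minus normal gland (horizontal axis), against the number of probes (vertical axis) for all 404 sense and all 1749 antisense probes in grey, with the dotted line at the median of each strand. Coloured circles mark the 17 probes of Acvr1b, Ski and Bmp1, at heights that carry no value, and open circles had both normal glands at the floor; the Bmp1 sense probe, at -2.46, lies near the lower end of its strand.

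Detection in the tumors rests on the same tumor signals that took part in the choice of the genes, and is given as a description. The scanner software called all 3 sense probes well above background on all 4 tumor arrays, as it did 89.1% of all sense probes. On the antisense strand 8 of the 14 probes were well above background on all 4 tumors, where the share over the strand was 59.4%. These were Acvr1b probes 0, 1, 2 and 4, Ski probes 1 and 2, and Bmp1 probes 0 and 4, and the same 8 had signals of at least 100 on every tumor. Bmp1 antisense probe 2 was well above background on 0 of the 4 tumors. The error that the scanner software assigned to each spot was between 10% and 10.3% for probes with signals of at least 100 on every tumor, but reached 83.8% for Bmp1 antisense probe 2. On the tumor arrays no spot of these genes was saturated, and the Acvr1b sense probe and Acvr1b antisense probe 1 were each marked as non-uniform on 1 tumor.

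The tumors also differed among themselves, by unequal amounts from probe to probe. The SD of the log2 signals over the 4 tumors was lowest for Bmp1 antisense probe 0 (0.19) and Ski antisense probe 1 (0.25), which lie at percentiles 2.57 and 4.52 of their strand. For the sense probes it was 0.40 for Acvr1b, 0.48 for Ski and 1.05 for Bmp1, where the median of the strand was 0.74. Bmp1 sense and Bmp1 antisense 4 placed the tumors in the same order, with tumor 3 lowest, then tumor 1, tumor 4 and tumor 2. The brightest tumor exceeded the dimmest 4.73-fold on the first and 6.17-fold on the second. Against the normal glands the 2 probes parted: all tumors lay below them on the first and overlapped with them on the second. The pair was picked from many, so nothing is read from the shared order. Tumors 3 and 4 shared a slide and still differed by 1.42 on the log2 scale on the Bmp1 sense probe and by 2.40 on antisense probe 4.

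The sense probes with a course most like that of each gene were found by Pearson's correlation of log2 signals over the 6 arrays, among 349 sense probes above the floor on all of them. These values describe 6 arrays that fall into 2 groups, and share those arrays' scaling. For Acvr1b they were Hsp90ab1, a chaperone (r = 0.96), Itga6, an integrin subunit of epithelia (r = 0.95), and Dag1, dystroglycan (r = 0.94). For Ski they were Krt18, a keratin of luminal cells (r = 0.99), Ltbr, the lymphotoxin beta receptor (r = 0.99), and Rras, a small GTPase (r = 0.99). Krt18 and Ski both peaked in tumor 4, where Krt18 read 40295 against 15531 to 17987 in the other tumors. The gene of the Krt18 probe was taken from the neighbouring entries of the table. Its description names a cDNA clone, as do those of the Itga6 and Serpine2 probes. For Bmp1 they were Serpine2, a secreted protease inhibitor (r = 0.99), Pold1, the catalytic subunit of DNA polymerase delta (r = 0.98), and Selplg, a selectin ligand of leukocytes (r = 0.91). Serpine2 read 621, 1931, 428 and 1171 in tumors 1 to 4 and 5411 and 7139 in the normal glands, with the tumors in the same order as for Bmp1. After quantile normalization 4 of these 9 genes were still among the nearest 3 of their gene: Hsp90ab1, Ltbr, Serpine2 and Selplg.

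**Figure D3:**
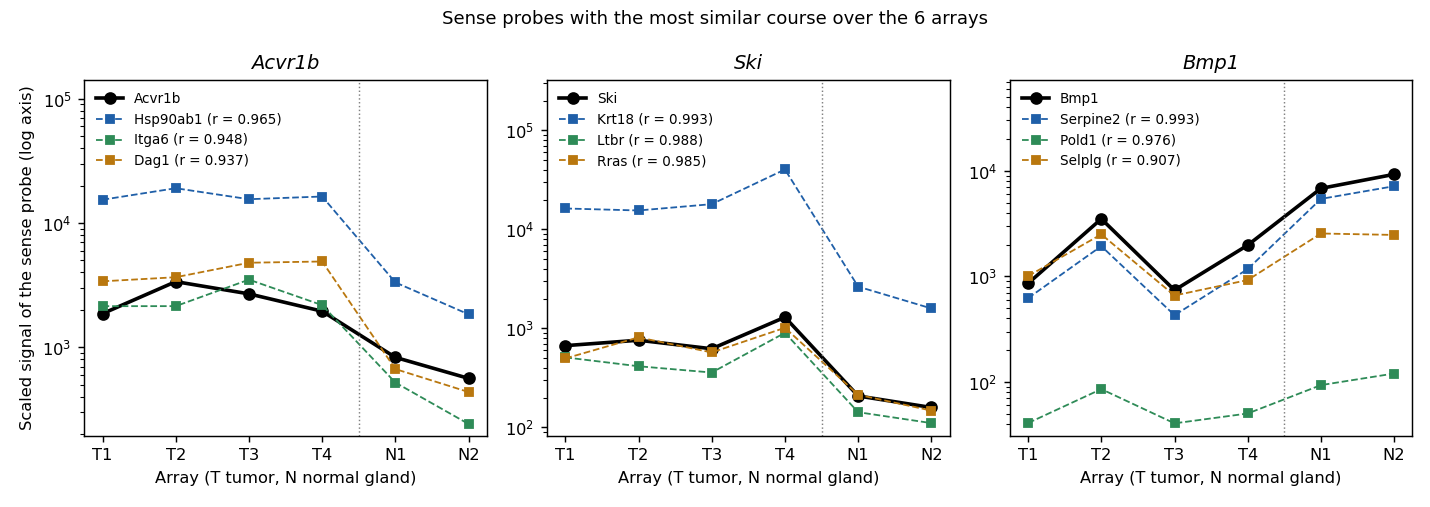
Scaled signal of the sense probes (log axis) of Acvr1b, Ski and Bmp1 (black) and of the 3 genes with the most similar course (coloured, with Pearson's r) on the arrays of tumors T1 to T4 and normal glands N1 and N2. Only the course over the arrays can be compared, since signals of different probes share no scale; the Bmp1 panel shows tumor 2 as the highest tumor and both normal glands above all tumors for Bmp1 itself.

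Other genes of the pathway were tested, to place the 3 genes among their partners. Of 118 listed genes, 16 had named probes: the ligands Bmp4, Bmp8a, Gdf9, Inha, Inhba, Tgfb1 and Tgfb2, the receptors Bmpr1a and Tgfbr1, Smad1 and Smad2, Skil, which is the close relative of Ski, the activin-binding protein Fst, and the targets Fos, Jun and Msx2. No listed substrate of Bmp1 had a probe. On the sense strand, 1 of 16 genes was called higher and 0 lower by limma at an adjusted p of 0.05 over all sense probes, where 14.4% of all sense probes were higher and 0.248% lower. Over all sense probes the number called higher depended on the scaling, at 58 as deposited, 22 with quantile normalization, 28 with arrays set to a common median and 21 with a common 75th percentile, whereas that of the 16 genes was 1 in each. Without adjustment limma gave 7 higher and 0 lower, beside 147 higher and 8 lower of all 404 sense probes. In 8 of the 16 every tumor lay above both normal glands, beside 42.6% of all sense probes, and the median log2 difference was 1.34, beside 0.91 for the strand.

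The gene that rose was Fos, a subunit of the AP-1 transcription factor, with 2880, 871, 1130 and 2922 in the tumors against 160 and 109. Its log2 difference was 3.68 (SE 0.65; limma adjusted p = 0.0215), higher in 4 of 4 tumors. The call was lost without tumor 1, tumor 4, normal gland 1 or normal gland 2, with adjusted p-values of 0.0778, 0.0563, 0.0658 and 0.302.

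Tgfbr1, the type I receptor of TGF-beta, had the smallest p of the receptors on the sense strand. It read 3914, 2309, 703 and 3154 in the tumors against 489 and 284. Its log2 difference was 2.51 (SE 0.74; limma adjusted p = 0.0565), which did not pass. Skil read 1005, 408, 877 and 1835 against 294 and 213, a difference of 1.85 (SE 0.64; limma adjusted p = 0.0799), with no overlap, as for Ski. Fst, which binds activins outside the cell, had a difference of 1.95 (SE 0.59; limma adjusted p = 0.0566). Smad2, a receptor Smad of the activin and TGF-beta branch, had a difference of 1.32 (SE 0.53; limma adjusted p = 0.113). Inhba, a subunit of the activins, read 70.3, 24.0, 10.1 and 34.8 in the tumors, with both normal glands on the floor (limma adjusted p = 0.0583), and the gene of this sense probe was taken from the neighbouring entries of the table. None of these 5 passed the adjusted threshold, although every tumor lay above both normal glands for each. Tgfbr1 and Fst passed with the filter on low signals (adjusted p = 0.0327 and 0.0418) and with trend and robust estimation (adjusted p = 0.0344 and 0.0441). Without tumor 3, Tgfbr1 and Inhba passed (adjusted p = 0.0176 and 0.0209), and without tumor 2, Fst and Skil did (adjusted p = 0.0353 and 0.0414). Other settings moved them away from the threshold. With arrays set to a common 75th percentile none of the 5 passed. The limma adjusted p was then 0.0774 for Tgfbr1, 0.0804 for Inhba, 0.139 for Fst, 0.201 for Skil and 0.335 for Smad2. With the floor raised to 20 that of Inhba was 0.422.

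On the antisense strand 0 of the 68 probes of these 16 genes passed in either direction, beside 0.457% of all antisense probes higher and 0% lower. Without adjustment limma gave 8 higher and 4 lower, beside 227 higher and 57 lower of all 1749 antisense probes. In 13 of the 68 every tumor lay above both normal glands and in 9 below, beside 21.6% and 6.92% of all antisense probes. The median log2 difference was 0.42, beside 0.44 for the strand. The smallest p belonged to antisense probe 0 of the BMP receptor gene Bmpr1a, which read 414, 382, 377 and 332 against 99.1 and 57.1, with a log2 difference of 2.32 (SE 0.40; limma adjusted p = 0.0936). Tgfb2 antisense probe 8 had a difference of 2.91 (SE 0.93; limma adjusted p = 0.212), which was 1.61 without normal gland 2, whose value was the floor, and 4.21 without normal gland 1. Smad1 antisense probe 1 had a difference of -1.98 (SE 0.88; limma adjusted p = 0.330). Msx2 antisense probe 0 lay between 11.6 and 45.6 in the tumors, with both normal glands on the floor (limma adjusted p = 0.172). Antisense probe 2 of Fst and probe 1 of Skil, with differences of -0.90 (adjusted p = 0.474) and 0.83 (adjusted p = 0.678), overlapped between the groups.

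**Figure D4:**
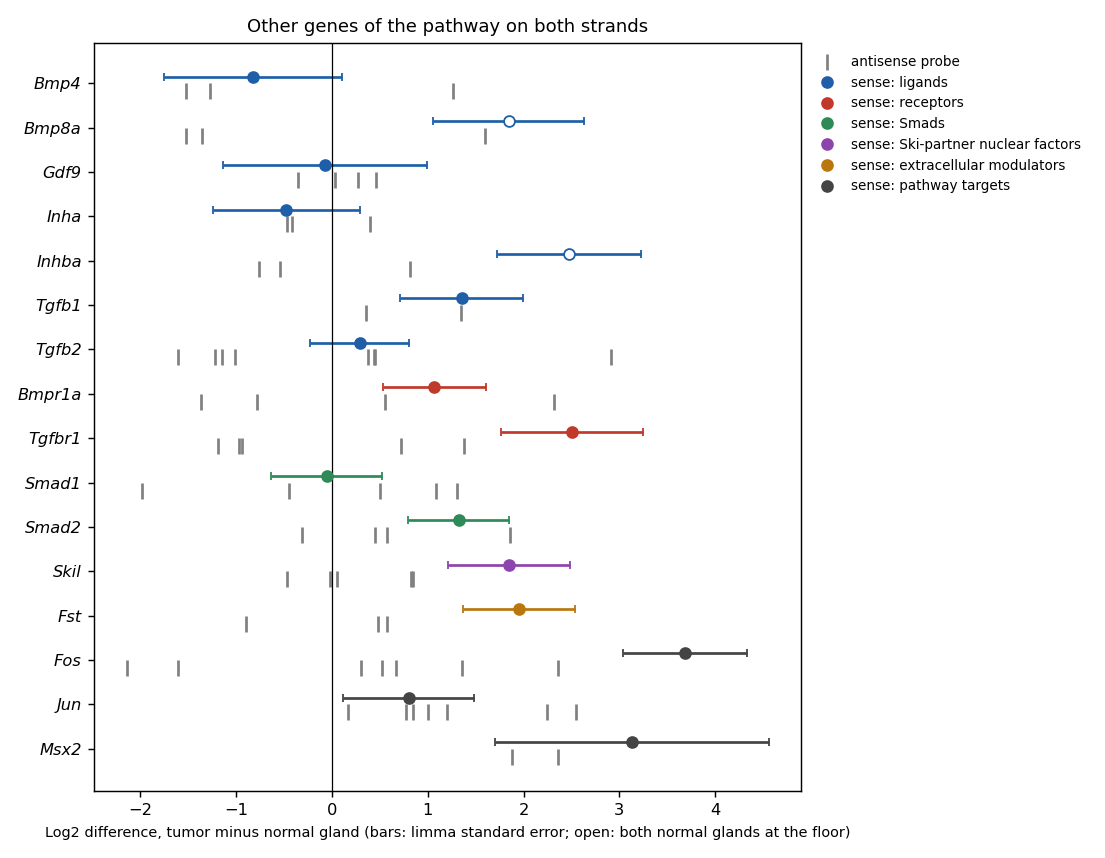
Log2 difference, tumor minus normal gland, of the 16 other pathway genes, with circles for sense probes coloured by role (bars: limma standard error; open circles: both normal glands at the floor) and grey ticks for antisense probes. Fos, at 3.68, is the only sense probe past the adjusted threshold, and most genes have antisense ticks on both sides of 0.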

How the data were processed

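RNA of 4 tumors and 2 normal glands was read on 1-colour Agilent arrays. The intensities deposited by the authors are processed signals of Agilent Feature Extraction (version 9.1.3.1 per the file headers), which the authors multiplied by 1 factor per array (0.822 to 1.16 for the tumors) and set to 5 where low or not above background. Because the table was already scaled, it was used as deposited. Its 2156 entries carry no probe names, so each was tied to the probe whose signals on the 4 tumor arrays it matched, for 42 with the help of neighbouring entries, which left out 3. Gene names came from RefSeq (GRCm38.p6). Of the sense probes, 76 were linked to a gene by their place in the table and 4 by symbol. The authors' scanner files mask 39878 spots, which were not used.

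Members and lists were chosen with earlier results of these data known. Tumors and normal glands were compared on log2 signals by lmFit and eBayes of limma 3.58.1 (R 4.3.3; two-sided, Benjamini-Hochberg within each strand, adjusted p 0.05). SE values of Acvr1b, Ski and Bmp1 come from the SD within each group. Named pathway genes were those past the threshold and, per role and strand, the probe with the smallest p. A gene of the pathway list was left out and is not reported here. Arrays give no read depth, and their number limits the precision.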

Additional observations from a re-analysis of the deposited data

How the results depend on the processing

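Over 11 alternatives each, 14 of the 17 probes of Acvr1b, Ski and Bmp1 kept their direction. The exceptions were Acvr1b antisense 1, Ski antisense 2 and Bmp1 antisense 2, which overlapped between the groups. Leaving out 1 array cannot turn the direction of a probe whose groups do not overlap. The genes were also chosen by these differences, so nothing is read from the count of directions kept. Of the 187 values over the alternatives, 14 moved by at least the spread between replicates. With the floor raised to 20 these were Ski antisense 0, 3 and 4 and Bmp1 antisense 1, whose differences shrank. The sense difference of Acvr1b moved to 1.39 after quantile normalization. Leaving out 1 array gave 1.53 to 2.09 for it, 1.91 to 2.33 for Ski and -2.88 to -2.13 for Bmp1. Where a normal gland was left out, the lone one was assumed to vary like the tumors. Scaling to the 75th percentile, scaling to the median and quantile normalization moved the sense median from 0.91 to 0.51, 0.64 and 0.50, and the antisense median from 0.44 to 0.04, 0.18 and -0.12.

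Of the other pathway genes, 1 sense probe was called higher. Leaving out 1 array gave 0 to 4. A filter on signals of at least 100 in at least 2 arrays gave 3, and trend and robust estimation gave 3. The methods' t-test called 0 on linear signals and 4 on log2 signals unadjusted, and 0 after Benjamini-Hochberg adjustment on each. On the antisense strand the methods' t-test unadjusted called 2 higher and 8 lower on linear signals, and 4 higher and 2 lower on log2 signals, and 0 of each after adjustment, while quantile normalization called 1 lower. The adjusted p of Fos ranged from 0.00574 to 0.302 over its alternatives. Skil antisense 1 reversed to -0.38 without normal gland 2, which was at the floor, and stood at 2.04 without normal gland 1. The cause was not tested for these changes. Whether samples with the same replicate number came from the same mouse is not stated. Their deviations correlated at -0.02 and 0.05. As the deviations of 2 normal glands mirror each other, these values cannot decide whether the samples were paired. With the replicate block 0 sense probes of the list were called. All 14 antisense probes of the 3 genes were detected by the positive and significant flag on all 4 tumors, against 8 by the well-above-background flag. The 14 include Bmp1 antisense 2, which was at the floor in tumors 3 and 4 and well above background on 0 tumors. The share of all antisense probes with the positive and significant flag is not given here, so nothing is read from this count.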
